A study of Ovis aries with 16 samples.

Results

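The estradiol by occlusion interaction asks whether the transcript response of the fetal sheep hypothalamus to a brief brachiocephalic occlusion differed between fetuses that had and had not been given estradiol. All 16 arrays of the series entered it, 1 fetus per array and 4 arrays in each of 4 groups. For each probe the interaction was the estradiol+BCO minus estradiol difference less the BCO minus control difference, on a log2 scale. A negative interaction means that the occlusion difference was lower with estradiol than without it, and a positive one that it was higher. Control fetuses received no hormone and a sham occlusion. BCO fetuses received no hormone and had the brachiocephalic artery occluded for 10 min, followed by 50 min of recovery. Estradiol fetuses received 250 ug of estradiol per day for 5 days and a sham occlusion, and estradiol+BCO fetuses received the same estradiol and the same occlusion. Every fetus carried chronic catheters, had blood drawn during the experiment and was between day 124 and day 128 of a gestation that lasts 147 days. The hypothalamus was taken 1 h after the occlusion or sham period began.

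The brachiocephalic artery supplies the head of the fetal sheep, so its occlusion lowers blood flow to the brain. The fetus answers with reflexes that involve the hypothalamus, including activation of the pituitary and adrenal glands, and estradiol is known to act on these reflexes near term. The hypothalamus also holds the neuroendocrine and feeding neurons of the arcuate nucleus, the oxytocin neurons and many cells that carry estrogen receptors.

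At an adjusted p under 0.05 the interaction was called for 3 of 12937 tested probes (0.0232%), all 3 negative, and for none of the 1329 tested probes that carried a gene name. The called probes were designed on expressed sequence tags with no gene name in the annotation used here, so their sequences are given as their identity. No position is given because no sheep genome was used here. They are printed 5′ to 3′ in lower case with nothing in capitals, since no part of them was singled out.
A_70_P055401: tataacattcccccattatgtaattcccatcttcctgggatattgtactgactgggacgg
A_70_P036801: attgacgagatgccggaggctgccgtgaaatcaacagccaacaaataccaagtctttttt
A_70_P005946: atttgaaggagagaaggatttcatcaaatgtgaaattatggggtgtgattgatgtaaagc
No other of the 15008 probes on the array shared a stretch of 20 bases with any of these 3. Whether another unnamed probe reads the same transcript is not known here. The named gene with the lowest interaction p was AGGF1, an angiogenic factor, which had a pair of probes, printed in the same way.
AGGF1, A_70_P056091: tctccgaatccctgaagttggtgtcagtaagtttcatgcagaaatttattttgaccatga
AGGF1, A_70_P056092: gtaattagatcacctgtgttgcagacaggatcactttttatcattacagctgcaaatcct
The longest stretch these AGGF1 probes shared was 6 bases, so they read different parts of the transcript. For KDR, a receptor of vascular endothelial growth factor, the probes of lowest p overlapped, and capitals mark the 40 bases they shared.
KDR, A_70_P026596: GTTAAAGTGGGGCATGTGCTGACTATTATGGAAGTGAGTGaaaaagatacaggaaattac
KDR, A_70_P026597: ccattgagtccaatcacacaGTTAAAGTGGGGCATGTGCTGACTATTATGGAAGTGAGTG
Many other genes described here had a pair of probes that shared 57 to 59 of 60 bases, and the second value of such a pair is no independent measurement.

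Signal levels are log2 intensity minus the 75th percentile of the array. That percentile lay at 2024 to 2908 intensity units, and 77.27% to 86.41% of the 15008 probes were well above background on an array. No array stood apart, with median correlations to the other arrays of 0.977 to 0.985. There were 2 slides, on each of which every group had 2 arrays, and 856 probes differed between slides at an adjusted p under 0.05. Slide was therefore a block in the model, and replicates 1 and 2 of every group were on slide 1 and replicates 3 and 4 on slide 2. Of the lists of general neuron and oligodendrocyte markers no gene had a named, tested probe, whereas hypothalamic peptide transcripts such as OXT, SST, POMC and NPY were well above background on all 16 arrays. The tissue is a mixture of cells, so fewer cells of a type and less RNA per cell cannot be told apart in any value that follows.

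For A_70_P055401 the levels were -1.58, -1.95, -1.81 and -1.78 in control, -1.20, -1.35, -1.55 and -1.69 in BCO, -1.24, -1.06, -1.07 and -1.41 in estradiol and -2.17, -1.97, -2.31 and -2.18 in estradiol+BCO. Group means were -1.78 ± 0.15 in control, -1.45 ± 0.22 in BCO, -1.19 ± 0.17 in estradiol and -2.16 ± 0.14 in estradiol+BCO (SD, n = 4 each). All estradiol+BCO arrays lay below every array of the other 3 groups, all estradiol arrays lay above all controls, and 1 BCO array (replicate 4) lay below the highest control. The occlusion difference was 0.33 ± 0.11 without estradiol and -0.96 ± 0.11 with it, the latter a level 0.513 times that of estradiol alone. Their difference was -1.30 ± 0.16 (SE; adjusted p = 0.017), with -1.41 on slide 1 and -1.18 on slide 2. This was also the 1 probe called for occlusion with estradiol (0.00773% of those tested; adjusted p = 0.0130). That call was lost without estradiol+BCO replicate 1 or 4 or estradiol replicate 2 or 3 and with replicate number as a block (smallest adjusted p of any probe 0.0626 to 0.0954), and on each slide alone. There were 3 calls without BCO replicate 2 or 3 and 2 without estradiol+BCO replicate 3, this probe among them.

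Levels of A_70_P036801 were -3.94, -3.61, -3.97 and -4.03 in control, -3.39, -3.19, -3.65 and -3.73 in BCO, -3.53, -3.46, -3.48 and -3.53 in estradiol and -4.04, -4.11, -4.31 and -4.26 in estradiol+BCO. Here too the estradiol+BCO arrays were the 4 lowest of the series, the estradiol arrays lay closest together, and BCO overlapped control at 1 control array. The occlusion difference was 0.40 ± 0.10 without estradiol and -0.68 ± 0.10 with it, and the interaction was -1.08 ± 0.14 (SE; adjusted p = 0.017), with -1.06 on slide 1 and -1.09 on slide 2. Levels of A_70_P005946 were -3.04, -3.02, -2.31 and -2.39 in control, -2.23, -2.64, -1.79 and -1.93 in BCO, -2.41, -2.42, -1.61 and -1.86 in estradiol and -2.79, -2.83, -2.31 and -2.32 in estradiol+BCO. This probe read lower on slide 1 than on slide 2 in every group, and within each slide both BCO arrays exceeded both control arrays and both estradiol+BCO arrays lay below both estradiol arrays. Its occlusion difference was 0.54 ± 0.10 without estradiol and -0.49 ± 0.10 with it, and its interaction was -1.03 ± 0.14 (SE; adjusted p = 0.017), with -0.99 on slide 1 and -1.07 on slide 2. For each of the 3 probes occlusion without estradiol was not called (adjusted p = 0.454, 0.372 and 0.220), and occlusion with estradiol was called for A_70_P055401 only. The 3 calls were narrow, and without slide in the model only A_70_P055401 was called. No probe was called without control replicate 4, BCO replicate 3, estradiol replicate 2 or any 1 of estradiol+BCO replicates 2, 3 and 4 (948 to 1119 probes then had an unadjusted p under 0.05 by limma), and 1 was called without estradiol replicate 4, although the 3 interactions stayed between -1.36 and -0.95 whichever single array was left out. Without BCO replicate 1 there were 5 calls, among them these 3.

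**Figure D1:**
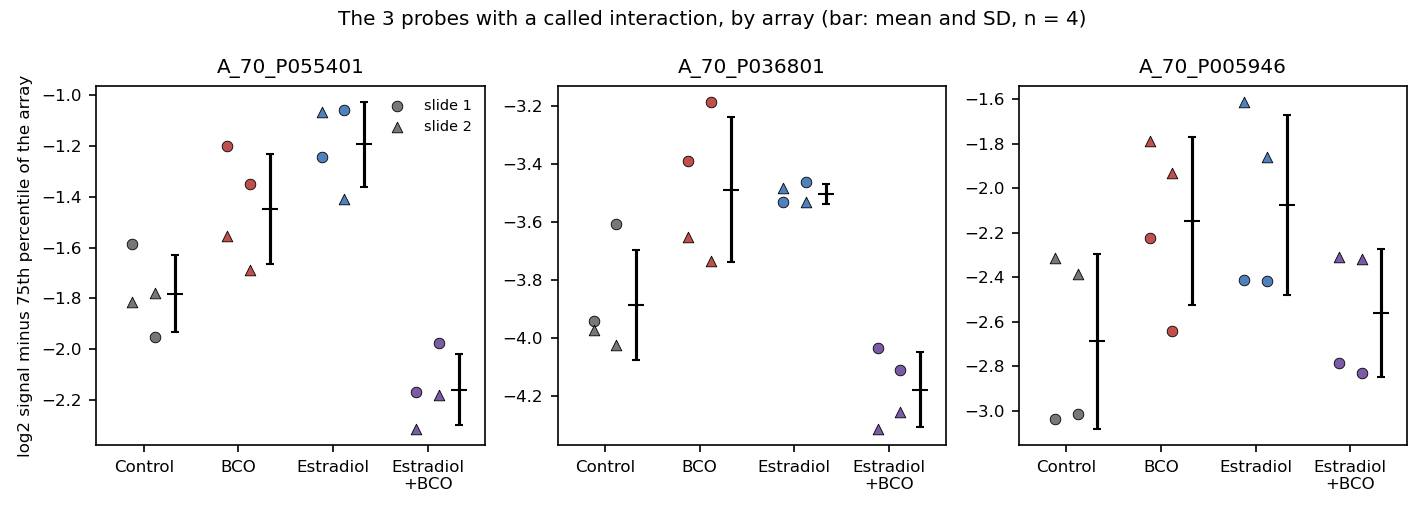
Levels of the 3 called probes on each array (log2 signal minus the array's 75th percentile), by group, with circles for slide 1 and triangles for slide 2 and bars for the mean and SD of 4 arrays. In the first and second panels the 4 estradiol+BCO arrays lie below all others, and in the third the slides separate while the order of groups within a slide is kept.

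Beyond the calls, 1105 probes (8.54%) had an unadjusted p under 0.05 for the interaction, 419 positive (3.24%) and 686 negative (5.3%), by limma. Of all tested probes 49.3% had a positive interaction. The split depended on scaling. Of these probes 37.9% were positive with the 75th percentile, 49.9% with the median of each array and 49.4% in the authors' log2 value table, which is centred on the median. At an adjusted p under 0.1 there were 10 probes, all negative, AGGF1 being the 1 that was named. All 10 had means above control in both the BCO and the estradiol group. The same held for 638 of the 686 negative probes (93.0%) against 31.3% of all tested probes, and 389 of the 419 positive probes (92.8%) had both means below control against 31.1% of all. Because the control, BCO and estradiol arrays all enter the contrast, such shares are largely set by the choice of probes and are given as a description. Among the 686 negative probes 654 (95.3%) had a positive occlusion difference without estradiol and a negative one with it, against 25.9% of all. Among the 419 positive probes 384 (91.7%) had the opposite, against 22.6% of all. These shares too are largely set by the choice of probes, because the interaction is the difference between the arms.

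Across all tested probes the occlusion differences without and with estradiol were only loosely related, with a Pearson correlation of 0.19 and a Spearman correlation of 0.07 over 12937 probes, which share arrays and are not independent. The differences had the same sign for 51.5% of probes. Occlusion without estradiol was called for 0 probes (0%; smallest adjusted p = 0.220 by limma), and occlusion with estradiol for 1. Without BCO replicate 2 there were 9 calls for occlusion without estradiol, and on slide 2 alone 14. An unadjusted p under 0.05 was found for 1091 probes (8.43%) without estradiol, 4.27% higher and 4.16% lower after occlusion. With estradiol it was found for 1146 probes (8.86%), 3.85% higher and 5.01% lower. Every BCO array exceeded every control array in 2.22% of probes and lay below every control array in 1.82%. Every estradiol+BCO array exceeded every estradiol array in 2.16% and lay below in 2.88%. In 26 probes (0.201%) every BCO array exceeded every control array and every estradiol+BCO array lay below every estradiol array. Of these 26, 5 were named and came from 4 genes, namely both AGGF1 probes, FTO, PSIP1 and 1 PRNP probe. The reverse arrangement was found for 3 probes (0.0232%), none of them named. Shares for other pairs of groups were not counted, so such separations of single probes are given as values only.

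**Figure D2:**
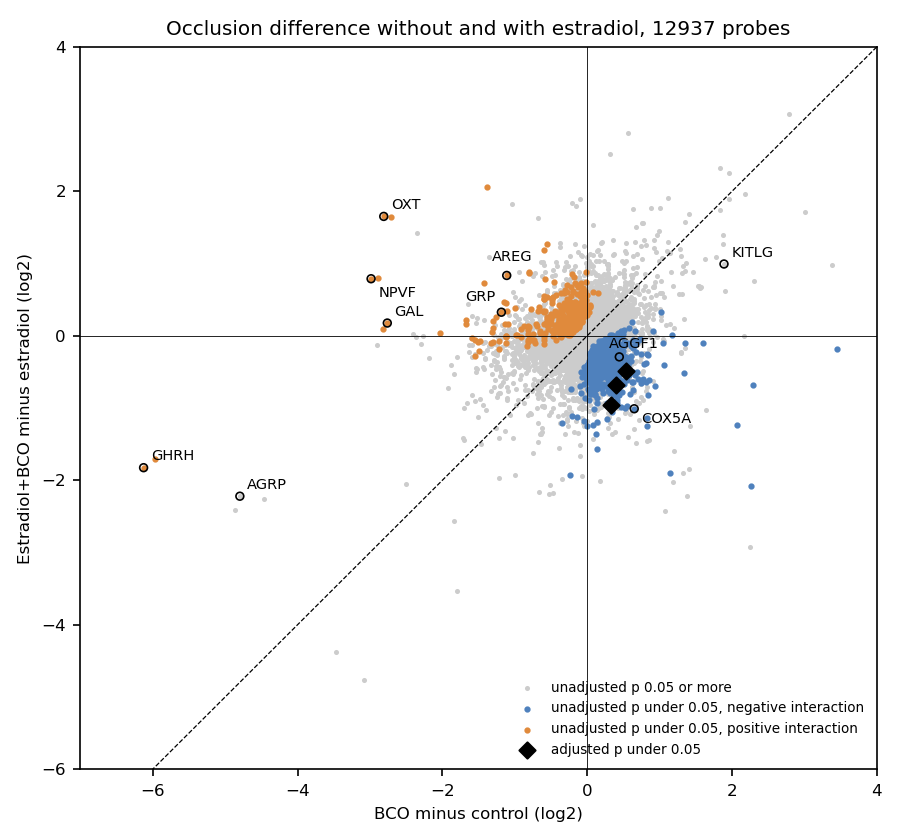
Occlusion difference with estradiol (vertical axis, log2) against the difference without estradiol (horizontal axis, log2) for 12937 probes, with the dashed line marking equal differences. Blue and orange points have an unadjusted interaction p under 0.05, black diamonds are the 3 called probes, and open circles mark named genes. OXT, NPVF and GAL at the left had a large negative difference without estradiol and one near 0 or positive with it. GHRH and AGRP, farther left at -6.13 and -4.80, stayed negative with estradiol at -1.83 and -2.22.

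The 12 named genes with a negative interaction of lowest p were AGGF1, PRNP, FTO, KDR, PSIP1, COX5A, PYGM, MGLUR1, YWHAE, PTCH1, GRIN1 and CPT1A, and none passed the threshold. In all 12 the mean occlusion difference was positive without estradiol and negative with it, as in 95.3% of the 686 negative probes above. That arrangement follows largely from choosing genes by a negative interaction. AGGF1 levels were 0.08, 0.12, 0.14 and -0.01 in control, 0.56, 0.56, 0.38 and 0.61 in BCO, 0.41, 0.57, 0.69 and 0.42 in estradiol and 0.27, 0.24, 0.10 and 0.32 in estradiol+BCO. The groups did not overlap in either arm, and the control arrays were the lowest of the series apart from 1 estradiol+BCO array that lay within their range. The occlusion difference was 0.44 ± 0.09 without estradiol and -0.29 ± 0.09 with it, and the interaction was -0.74 ± 0.13 (SE; adjusted p = 0.0894), with -0.70 on slide 1 and -0.77 on slide 2. The second AGGF1 probe gave an interaction of -0.72 from differences of 0.34 and -0.38. Over 30 alternative settings the AGGF1 interaction lay between -0.79 and -0.67, with adjusted p-values of 0.0589 to 0.952.

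FTO encodes an RNA demethylase linked to body weight. Its levels were -0.35, -0.34, -0.60 and -0.50 in control, -0.15, -0.19, -0.18 and -0.08 in BCO, -0.25, 0.01, -0.08 and -0.30 in estradiol and -0.45, -0.50, -1.09 and -0.59 in estradiol+BCO. Neither arm overlapped, and estradiol+BCO replicate 3 was the lowest array. The interaction was -0.80 ± 0.17 (SE; adjusted p = 0.137), with -0.53 on slide 1 and -1.06 on slide 2, and a second probe sharing 23 bases gave -0.62. PSIP1 encodes a chromatin-associated transcription coactivator. Its mean levels were 2.08 ± 0.23 in control, 2.50 ± 0.23 in BCO, 2.43 ± 0.17 in estradiol and 1.96 ± 0.19 in estradiol+BCO (SD, n = 4 each), again without overlap in either arm, and its interaction was -0.89 ± 0.21 (SE; adjusted p = 0.198). For PRNP, the prion protein gene, probes disagreed. The probe of lowest p gave -0.58 ± 0.11 (SE; adjusted p = 0.127) and a probe sharing 59 of its bases -0.33, whereas a pair of probes sharing at most 5 bases with these gave 0.27 and 0.22, so no direction is given for the gene.

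KDR levels were -4.41, -4.64, -4.35 and -4.90 in control, -4.20, -3.89, -3.92 and -4.43 in BCO, -4.67, -4.24, -4.07 and -3.94 in estradiol and -4.69, -5.10, -5.00 and -4.81 in estradiol+BCO. Estradiol+BCO arrays were below all estradiol arrays, and BCO replicate 4 lay below 2 control arrays. The interaction was -1.14 ± 0.26 (SE; adjusted p = 0.165) and the overlapping probe gave -1.09, while the remaining KDR probes, which share at most 7 bases with any other, gave -0.33 and -0.30. PTCH1, the receptor for hedgehog ligands, had an interaction of -0.86 ± 0.26 (SE; adjusted p = 0.337), which lay mainly in the arm with estradiol, where the difference was -0.74 ± 0.18 against 0.12 ± 0.18 without it. By slide it was -1.29 on slide 1 and -0.42 on slide 2.

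Metabolic genes in this set were COX5A, a subunit of cytochrome c oxidase, PYGM, a glycogen phosphorylase, and CPT1A, which admits fatty acids to mitochondria. COX5A had the most negative interaction of the 12, -1.66 ± 0.48 (SE; adjusted p = 0.309), from 0.65 ± 0.34 without estradiol and -1.01 ± 0.34 with it. PYGM gave -1.03 ± 0.31 (SE; adjusted p = 0.327) and CPT1A -0.56 ± 0.17 (SE; adjusted p = 0.347), the latter with -0.27 on slide 1 and -0.84 on slide 2. With normexp background correction COX5A gave -1.03, a value over 1.5 times smaller in size. YWHAE, a 14-3-3 adaptor protein, gave -0.45 ± 0.14 (SE; adjusted p = 0.329), but its other probe, which shares 6 bases with it, gave -0.04.

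Glutamate receptors were represented by GRIN1, the obligatory subunit of the NMDA receptor, and by a probe listed as MGLUR1, metabotropic glutamate receptor 1. GRIN1 levels were -0.53, -0.98, -1.15 and -1.41 in control, -0.83, -0.26, -0.51 and -0.29 in BCO, -1.04, -0.62, -0.75 and -1.02 in estradiol and -0.88, -1.13, -1.63 and -1.13 in estradiol+BCO. Every BCO array exceeded every estradiol+BCO array, though narrowly, and choosing genes by a negative interaction favours that order. Control overlapped BCO and estradiol overlapped estradiol+BCO. The interaction was -0.88 ± 0.27 (SE; adjusted p = 0.347), with -0.38 on slide 1 and -1.38 on slide 2. A probe listed as NR1, an older name of the same gene, shares only 5 bases with it and gave -0.85. The MGLUR1 probe gave -0.76 ± 0.23 (SE; adjusted p = 0.329), with control replicate 2 low, and a separate probe gave -0.50.

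**Figure D3:**
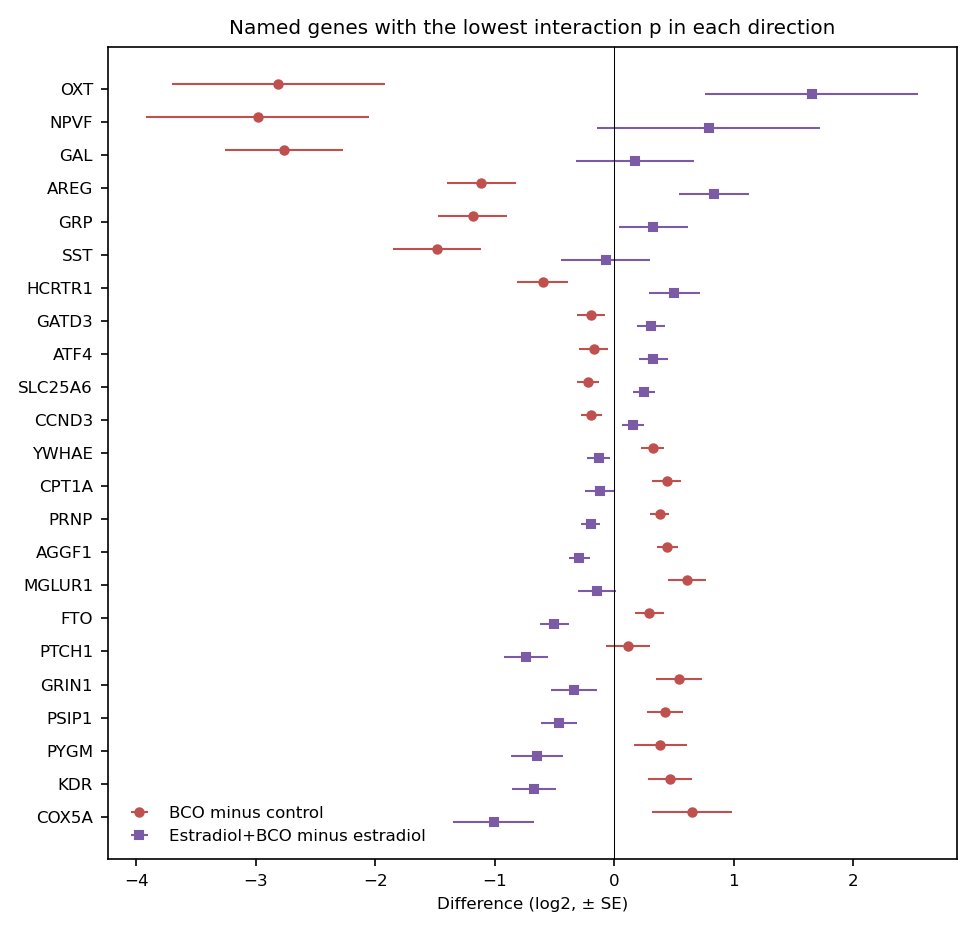
Occlusion difference (log2, with SE) without estradiol (red circles) and with estradiol (purple squares) for the named genes of lowest interaction p in each direction. Neuropeptide genes OXT, NPVF, GAL, GRP and SST sit at the top, with AREG between GAL and GRP. Their differences without estradiol, AREG included, were -2.98 to -1.11. For the 12 lower genes the red circle is to the right of the purple square.

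The named genes with a positive interaction of lowest p included AREG, GAL, GRP, HCRTR1, SLC25A6, OXT, GATD3, ATF4, NPVF, CCND3 and SST, and again none passed the threshold. Of these, 5 encode neuropeptides and 1 the receptor of another. AREG encodes amphiregulin, a ligand of the epidermal growth factor receptor that is induced by estrogen in some tissues. Its levels were -2.64, -1.97, -2.60 and -3.38 in control, -3.27, -3.49, -3.65 and -4.62 in BCO, -2.79, -2.43, -3.29 and -3.10 in estradiol and -1.99, -2.27, -2.53 and -1.49 in estradiol+BCO. The BCO group had the lowest mean and estradiol+BCO the highest. Control replicate 4 lay below the highest BCO array, and estradiol replicate 2 above the lowest estradiol+BCO array. The occlusion difference was -1.11 ± 0.29 without estradiol, 2.16-fold lower, and 0.84 ± 0.29 with it, 1.78-fold higher. The interaction was 1.95 ± 0.41 (SE; adjusted p = 0.137), with 1.56 on slide 1 and 2.33 on slide 2.

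GAL encodes galanin, a peptide of arcuate and other hypothalamic neurons. Its levels were -1.49, -0.53, -0.57 and -0.14 in control, -2.83, -3.49, -3.16 and -4.29 in BCO, -0.55, -0.03, -2.19 and -2.65 in estradiol and -0.79, -0.49, -2.28 and -1.15 in estradiol+BCO. The 4 BCO arrays were the 4 lowest of the series, and estradiol and estradiol+BCO overlapped widely. The difference was -2.76 ± 0.49 without estradiol and 0.18 ± 0.49 with it, and the interaction was 2.94 ± 0.70 (SE; adjusted p = 0.191), with 1.80 on slide 1 and 4.08 on slide 2. OXT encodes oxytocin, the peptide of magnocellular and parvocellular neurons that is released into blood and brain. OXT levels were 1.70, 2.68, 1.95 and -1.08 in control, 1.28, -2.71, -1.31 and -3.25 in BCO, 0.28, 1.06, 1.48 and 1.72 in estradiol and 2.67, 2.48, 2.77 and 3.25 in estradiol+BCO. All 4 estradiol+BCO arrays exceeded all estradiol arrays, whereas control and BCO overlapped because control replicate 4 was low and BCO replicate 1 was near the other controls. The difference was -2.81 ± 0.89 without estradiol and 1.65 ± 0.89 with it, giving the interaction largest in size among the genes named here, 4.46 ± 1.26 (SE; adjusted p = 0.309), with 4.81 on slide 1 and 4.12 on slide 2.

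NPVF encodes the RFamide peptides that restrain gonadotropin release. Levels of NPVF were -2.00, -0.22, -1.03 and 0.41 in control, -1.65, -4.56, -3.93 and -4.65 in BCO, -1.99, 0.32, -2.17 and -4.20 in estradiol and -0.08, -1.76, -3.01 and -0.01 in estradiol+BCO. The estradiol arrays spread widely, with replicate 4 as low as the BCO arrays, and BCO replicate 1 lay among the controls. The interaction was 3.77 ± 1.32 (SE; adjusted p = 0.448), with 1.90 on slide 1 and 5.65 on slide 2. GRP encodes gastrin-releasing peptide. Its levels were -2.79, -1.56, -1.21 and -1.39 in control, -2.64, -3.53, -3.04 and -2.48 in BCO, -2.01, -2.45, -2.54 and -2.23 in estradiol and -2.04, -2.23, -2.04 and -1.61 in estradiol+BCO. Control replicate 1 lay within the BCO range and estradiol overlapped estradiol+BCO. The interaction was 1.51 ± 0.41 (SE; adjusted p = 0.277), with 1.00 on slide 1 and 2.02 on slide 2, and a probe sharing 40 bases gave 1.53. SST encodes somatostatin, the inhibitor of growth hormone release. Its levels were 3.41, 3.94, 4.24 and 4.12 in control, 2.81, 3.17, 2.22 and 1.57 in BCO, 3.99, 4.49, 4.01 and 3.00 in estradiol and 4.01, 4.34, 2.73 and 4.10 in estradiol+BCO. The BCO arrays were below all controls, the estradiol groups overlapped, and estradiol+BCO replicate 3 was low. The interaction was 1.41 ± 0.52 (SE; adjusted p = 0.471), with 0.63 on slide 1 and 2.20 on slide 2, and the brighter SST probe, which shares 59 bases with it, gave 1.23.

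HCRTR1 is a receptor of the orexins, peptides of the lateral hypothalamus that promote wakefulness. Its levels were -3.15, -3.68, -3.28 and -3.31 in control, -4.15, -3.86, -3.63 and -4.17 in BCO, -4.43, -4.33, -3.87 and -4.40 in estradiol and -3.52, -4.31, -3.96 and -3.22 in estradiol+BCO. Control overlapped BCO at 1 array, every estradiol array lay below every control array, and the estradiol groups overlapped. No share over all probes was counted for estradiol against control. The interaction was 1.103 ± 0.30 (SE; adjusted p = 0.277), with 1.05 on slide 1 and 1.15 on slide 2. The remaining 4 genes had interactions of 0.35 to 0.50. They were SLC25A6, an adenine nucleotide carrier of mitochondria, GATD3, ATF4, a transcription factor of the integrated stress response, and CCND3, a D-type cyclin. ATF4 gave 0.50 ± 0.17 (SE; adjusted p = 0.448), and estradiol+BCO replicate 1 was its highest array at 0.94.

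**Figure D4:**
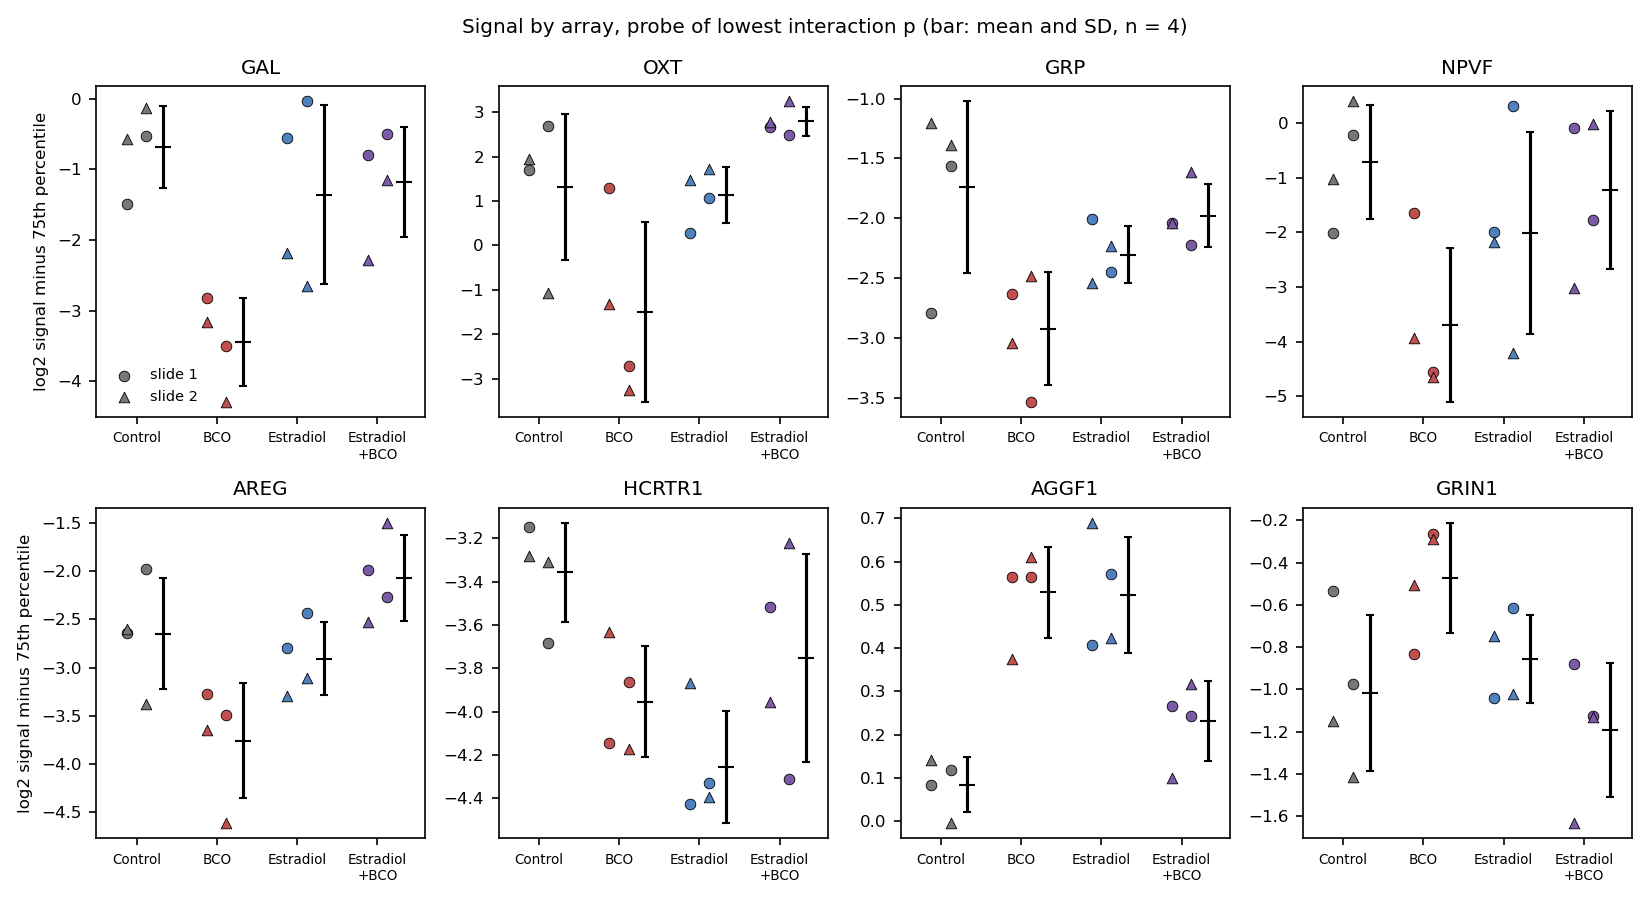
Levels on each array (log2 signal minus the array's 75th percentile) for 8 named genes by group, with circles for slide 1, triangles for slide 2, and bars for mean and SD (n = 4). BCO arrays are the lowest for GAL, estradiol+BCO arrays exceed all estradiol arrays for OXT, and for AGGF1 neither arm overlaps.

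Among arcuate neuropeptides 7 of 10 listed genes had a tested probe, and 6 of these interactions were positive and 1 negative, with a median of 1.23 beside -0.0046 for all tested probes. GHRH, GAL and SST had an unadjusted p under 0.05, and 0 of 7 were called by limma. Over all tested probes 8.54% had an unadjusted p under 0.05, 3.24% positive and 5.3% negative. Those shares are to be set beside this and each later list count. All 7 had a negative occlusion difference without estradiol (median -1.71), and 6 had a negative one with it (median -1.10). GHRH encodes growth hormone-releasing hormone. Its levels were -4.19, -2.07, -1.47 and -1.20 in control, -8.38, -7.76, -7.74 and -9.57 in BCO, -0.61, 0.06, -3.27 and -6.86 in estradiol and -2.48, -1.29, -7.52 and -6.70 in estradiol+BCO. No BCO array had it well above background, against 4 control, 4 estradiol and 3 estradiol+BCO arrays. Control was at least 33-fold higher than BCO, a bound set against the dimmest probe well above background on each BCO array (measured means -2.23 and -8.36; adjusted p = 0.319). The fitted interaction of 4.30 ± 1.87 (SE; adjusted p = 0.556) rests on that dim group and was 1.85 with normexp background correction.

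AGRP, the orexigenic peptide made beside NPY, had levels of -1.19, -1.90, -0.56 and -0.53 in control, -5.53, -5.89, -6.35 and -5.59 in BCO, -0.14, 0.92, -4.16 and -4.88 in estradiol and -3.32, -1.45, -6.57 and -5.80 in estradiol+BCO. BCO arrays were low throughout, and so were replicates 3 and 4 of both estradiol groups, which lay on slide 2. Estradiol replicates 3 and 4 were also the lower ones for GHRH and GAL, as given above. For POMC the estradiol arrays were at 2.16, 2.10, 0.41 and 0.38, and for NPY at 2.46, 3.11, -0.26 and -0.09. TAC3 had no such drop, and for SST only replicate 4 was clearly low. The interactions of GHRH, AGRP, GAL, POMC and NPY thus share the same low estradiol arrays and are not independent of each other. The AGRP interaction was 2.58 ± 1.44 (SE; adjusted p = 0.691), with 1.39 on slide 1 and 3.76 on slide 2, or 1.66 with normexp. POMC, the precursor of melanocortins and endorphin, gave 0.65 ± 0.66 (SE; adjusted p = 0.848), with -0.11 on slide 1 and 1.42 on slide 2. NPY, an appetite-stimulating peptide, gave 0.27 ± 0.96 (SE; adjusted p = 0.965) with -1.13 on slide 1 and 1.66 on slide 2, and TAC3, which encodes neurokinin B, gave -0.03 ± 0.56 (SE; adjusted p = 0.992). The occlusion differences without and with estradiol were -1.71 and -1.44 for NPY and -1.06 and -1.10 for TAC3.

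Other hypothalamic neuropeptides had 8 tested genes of 18 listed, 7 with a positive and 1 with a negative interaction and a median of 0.91. OXT, GRP and NPVF had an unadjusted p under 0.05, against 8.54% of all tested probes, and 0 were called. GNRH1, which drives the gonadal axis, gave 2.18 ± 1.53 (SE; adjusted p = 0.769), with 3.35 on slide 1 and 1.00 on slide 2, but only 0.53 with normexp, and it was well above background on 2 of 4 BCO arrays. TAC1, ADCYAP1 and UNC (urocortin), at 0.05, 0.01 and 0.32, and PMCH at -0.35 were closer to 0. The medians by slide were 0.60 and 1.86 for the arcuate list and 0.90 and 0.73 for the other list.

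Markers of neighbouring tissue are given beside these peptides. Of 17 pituitary markers 7 were tested, 5 with a positive and 2 with a negative interaction, a median of 0.25 and 0 at an unadjusted p under 0.05. Prolactin (PRL) gave 2.27 and the common glycoprotein hormone subunit CGA -1.69, the ends of the range. Each of the 7 had a negative occlusion difference without estradiol (median -1.31). The median pituitary marker level of an array ranged from -6.47 to -3.09 in control, -7.45 to -6.09 in BCO, -6.32 to -4.98 in estradiol and -6.56 to -5.83 in estradiol+BCO. Among transcription factors of hypothalamic nuclei 3 of 20 were tested. NR5A1, which marks the ventromedial nucleus as well as gonadotropes, gave 1.87 but was well above background on 0 BCO arrays, ISL1 of the arcuate nucleus 0.98 and ARNT2 -0.03. TTR of the choroid plexus gave 0.78 and NEUROD1 of thalamus and telencephalon 0.49, each the only tested gene of its list. HBB, the 1 erythroid marker tested, gave -0.73. The part of dissection and of these cell types in the peptide values was not tested.

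Of 24 listed genes of glutamate and GABA signalling 10 were tested, 1 with a positive and 9 with a negative interaction and a median of -0.45. At an unadjusted p under 0.05 there were 5 negative genes, against 5.3% of all tested probes, and 0 were called. The 5 were GRIN1, EAAT2 and EAAT1 (the astrocyte glutamate transporters SLC1A2 and SLC1A3), GRIA4, an AMPA receptor subunit, and GLUD1, glutamate dehydrogenase. EAAT2 levels were -2.53, -2.77, -3.04 and -2.68 in control, -2.65, -1.86, -2.30 and -3.04 in BCO, -2.52, -2.88, -2.18 and -2.18 in estradiol and -3.37, -2.64, -3.42 and -2.92 in estradiol+BCO. All estradiol+BCO arrays but replicate 2 lay below all estradiol arrays. Its interaction was -0.94 ± 0.36 (SE; adjusted p = 0.489), and a probe listed as GLT-1, another name of the same transporter, gave -0.20. The glutamate transporter EAAT1 gave -0.80 ± 0.31 (SE; adjusted p = 0.518) and a separate probe -0.74. GRIA4 and GLUD1 gave -0.44 and -0.46, and GRIA1, GRIA2, GRIA3 and GRM5 lay between -0.27 and 0.11.

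Astrocyte markers overlap this list through both transporters. Of 11 such markers 6 were tested, 2 with a positive and 4 with a negative interaction, with a median of -0.67. At an unadjusted p under 0.05 there were 3 negative markers, against 5.3% of all tested probes, and 0 were called. The 3 were EAAT2, EAAT1 and CONNEXIN 43. CONNEXIN 43 (GJA1, the astrocyte gap junction protein) gave -0.55 and GFAP, the astrocyte intermediate filament, -0.82, while AQP4 and FGFR3 gave 0.33 and 0.02. The median astrocyte marker level ranged from 0.15 to 1.00 in control, 0.36 to 1.19 in BCO, 0.70 to 1.19 in estradiol and 0.16 to 0.85 in estradiol+BCO. Fibroblast and meningeal markers gave 1 positive and 4 negative interactions over 5 genes with a median of -0.45. COL1A2 was the most negative at -0.83 and the 1 with an unadjusted p under 0.05. The 3 tested microglial and leukocyte markers gave 0.02 to 0.33. The part of astrocyte number in the glutamate values was not tested.

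Angiogenesis genes gave 2 positive and 13 negative interactions over 15 tested genes, with a median of -0.33. AGGF1 was the 1 with an unadjusted p under 0.05 and 0 were called. KDR entered by its brightest probe, at -0.33. ANGPT1, the ligand that stabilizes vessels through the TIE2 receptor, gave -1.21 ± 0.57 (SE; adjusted p = 0.589), or -0.51 on slide 1 and -1.92 on slide 2, with estradiol+BCO replicate 3 low at -4.52. PLGF, placental growth factor, gave 0.75 (1.20 on slide 1 and 0.31 on slide 2), and VEGFA, the main hypoxia-induced vascular growth factor, -0.37 (-0.15 on slide 1 and -0.59 on slide 2). Endothelial and mural markers, 4 of whose 8 tested genes are also on the angiogenesis list, had a median of -0.19 and 0 at an unadjusted p under 0.05.

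Inflammation genes gave 18 positive and 11 negative interactions over 29 tested genes, with a median of 0.15. Of the 29, 2 (IL1B and IFNAR1) had an unadjusted p under 0.05, near the 8.54% of all tested probes, and 0 were called. IL1B, an inflammatory cytokine, had levels of -2.20, -2.12, -2.62 and -2.02 in control, -2.64, -2.47, -2.53 and -2.71 in BCO, -2.39, -1.81, -2.60 and -2.45 in estradiol and -1.93, -1.95, -2.46 and -2.17 in estradiol+BCO. The BCO arrays lay below every control array except replicate 3, and the estradiol groups overlapped. Its interaction was 0.53 ± 0.22 (SE; adjusted p = 0.524). IFNAR1, a subunit of the type I interferon receptor, gave 0.35 ± 0.14 (SE; adjusted p = 0.525), from a difference of -0.01 without estradiol and 0.34 with it. TNF gave 0.57 (0.23 with normexp), IL6 0.42 (0.13 with normexp, 0.65 on slide 1 and 0.19 on slide 2) and PTGS2, the inducible prostaglandin synthase, -0.43. For PTGS2 the slides gave -0.84 on slide 2 and a value near 0 on slide 1. A separate PTGS2 probe, sharing 6 bases with it, gave 0.35 but was dim, with a mean level of -7.44.

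Estrogen and progesterone signalling gave 3 positive and 5 negative interactions over 8 tested genes with a median of -0.11, AREG being the 1 with an unadjusted p under 0.05. ESR1, estrogen receptor alpha, had levels of -0.52, 0.35, -0.39 and -0.17 in control, -2.05, -1.97, -0.53 and -2.32 in BCO, -0.12, 0.11, -0.13 and -1.25 in estradiol and -0.80, -0.05, -1.52 and -0.79 in estradiol+BCO. The BCO arrays lay below all control arrays, replicate 3 narrowly, and the estradiol groups overlapped. Its interaction was 1.09 ± 0.58 (SE; adjusted p = 0.665), or 0.68 on slide 2 alone. ESR2, estrogen receptor beta, gave 0.65 (0.05 with normexp, 0.36 on slide 1 and 0.94 on slide 2) and PGR, the progesterone receptor, -0.17 (0.36 on slide 1 and -0.70 on slide 2). In the list of the pituitary and adrenal axis, 5 interactions were positive and 4 negative over 9 tested genes, with a median of 0.02 and 0 at an unadjusted p under 0.05. CRHBP, which binds corticotropin-releasing hormone, gave 0.70 ± 0.40 (SE; adjusted p = 0.693), and NR3C1, the glucocorticoid receptor, 0.02.

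Hypoxia and glucose supply genes gave 5 positive and 9 negative interactions over 14 tested genes with a median of -0.06. ARNT, the partner of the hypoxia-inducible factors, was the 1 with an unadjusted p under 0.05, at -1.40 (-1.95 on slide 1 and -0.86 on slide 2). The probe was dim, with a mean level of -6.37, and gave -0.61 with normexp background correction. A probe sharing 59 of its bases gave -1.20 (unadjusted p = 0.139 by limma) and was well above background on 2 estradiol+BCO arrays. HIF1A gave -0.02, GLUT-1 0.05 and LDHA 0.02. Immediate early genes gave 4 positive and 3 negative interactions over 7 tested genes with a median of 0.02 and 0 at an unadjusted p under 0.05. FOS, the usual marker of recent neuronal activation, had levels of -0.94, 0.02, 0.41 and 0.08 in control, -0.41, -0.40, 0.16 and 0.15 in BCO, 0.49, -0.01, 1.03 and 0.03 in estradiol and 0.60, 0.83, 0.70 and 1.75 in estradiol+BCO. The highest array was estradiol+BCO replicate 4, and BCO and estradiol each overlapped control. All estradiol+BCO arrays exceeded all control arrays, but the share of all probes with that arrangement was not counted. The FOS interaction was 0.60 ± 0.38 (SE; adjusted p = 0.726), from -0.02 without estradiol and 0.58 with it. The remaining FOS probes, all dimmer, gave 0.50, 0.20 and 0.36, the last pair sharing 59 bases.

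Growth factor signalling gave 6 positive and 12 negative interactions over 18 tested genes with a median of -0.12, AREG being positive and IGFR1, TGFB2 and FGFR1 negative at an unadjusted p under 0.05. Receptors for feeding and metabolic hormones gave 5 positive and 7 negative over 12 with a median of -0.04, FTO and IGFR1 having an unadjusted p under 0.05. Monoamine and other transmitter receptors gave 4 positive and 3 negative over 7 with a median of 0.18, HCRTR1 being the 1 with an unadjusted p under 0.05. Lists of apoptosis, chaperones, cell cycle and hedgehog signalling had medians of -0.06, -0.12, -0.10 and -0.11, with ATF4 positive and PTCH1 negative at an unadjusted p under 0.05. The counts at an unadjusted p under 0.05 stand beside 8.54% of all tested probes. No member of any of the 20 lists with at least 5 tested genes was called.

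**Figure D5:**
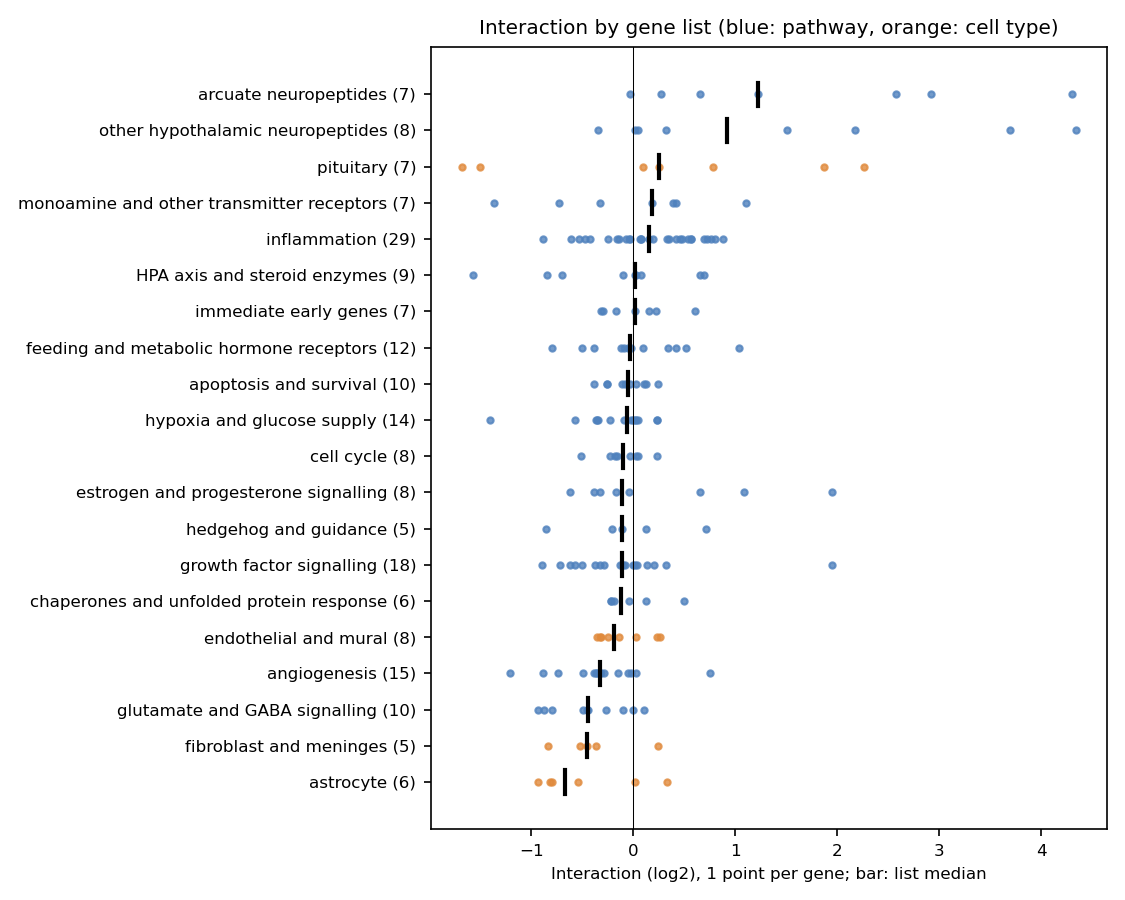
Interaction (log2, horizontal axis) of each tested gene, by its brightest probe, in the 20 lists with at least 5 tested genes, given with the number tested, where black bars are list medians, blue points pathway lists and orange points cell type lists. Both neuropeptide lists lie at the top with medians of 1.23 and 0.91, and glutamate, fibroblast and astrocyte lists lie at the bottom with medians of -0.45 to -0.67.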

How the data were processed

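The members were all 16 arrays, and the contrast, gene lists and genes named were chosen with earlier results of these data known. Per the labels, 500 ng of hypothalamic RNA (integrity numbers 7.4 to 8.4) from each fetus was labeled with Cy3. Per the file headers, the authors read 1-color Agilent ovine arrays with Feature Extraction, whose deposited processed signal is an intensity after background subtraction and spatial detrending. The authors also deposited a log2 value table, and set against the scanner files it held the same signal on a log2 scale, centered on each array's median feature. Slide was taken from the deposited files.

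Here, outlier-marked spots were set to missing (2 to 36 per array; none among the probes named in the text by the rule below), spots of a probe averaged, and log2 signal scaled to each array's 75th percentile. Probes well above background on at least 4 of 16 arrays were tested (12937 of 15008; 2071 left out). limma 3.58.1 in R 4.3.3 fitted 4 groups with slide as a block, moderated by empirical Bayes, with two-sided tests and Benjamini-Hochberg adjustment over all tested probes. The script was tested on simulated data. Names came from the files' annotation and a sheep gene table (assembly ARS-UI_Ramb_v3.0), which named 1570 probes (975 names), while old names were kept as listed.

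Named were called probes, the 12 named genes of lowest p in each direction by their probe of lowest p, up to 3 members of lowest p of each pathway list and a panel of 24 genes by their brightest probe, and the 3 unnamed probes of lowest p. Some genes that this rule selects are not reported here. Lists were summarized by their brightest probes, with counts and medians and no test. The number of arrays limits precision. Alternatives were other blocks, each slide alone, other scaling, background correction and filters, the value table, other moderation, array weights, spots kept and leaving out each array.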

Additional observations from a re-analysis of the deposited data

Results flagged for a closer look

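The 3 called probes were picked out because the occlusion difference without and with estradiol differed by the test of that difference, with interactions of -1.30 for A_70_P055401, -1.08 for A_70_P036801 and -1.03 for A_70_P005946.

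Over the 75 named probes, 300 groups of 4 arrays were examined. In 14 of them (4.67%) 1 array lay far from the other 3, by a gap above Dixon's critical value. Chance picks out about 1 in 20 groups in this way, so this number is no more than chance gives, and the arrays are listed as values only. Among receptors and signalling genes, MGLUR1 was at -6.62 in control replicate 2 and PTCH1 at -4.43 in control replicate 1. OPRK1, the kappa opioid receptor, was at -3.37 in BCO replicate 1. ESR2 was at -5.47 in control replicate 2 and at -5.96 in estradiol replicate 1. Among peptides, NPVF was at -1.65 in BCO replicate 1 and TAC3 at -0.19 in estradiol replicate 2. The brighter SST probe was at 1.79 in BCO replicate 4 and at 2.88 in estradiol+BCO replicate 3, and ANGPT1 at -4.52 in that same estradiol+BCO array. ATF4 was at 0.94 in estradiol+BCO replicate 1. The steroidogenic transport protein STAR was at -6.28 in estradiol replicate 4. The apoptosis gene BAX was at -1.23 in control replicate 1.

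AVPR1B, the pituitary vasopressin receptor, was at -3.41 in estradiol replicate 1 with the other estradiol arrays at -6.53 to -6.27. Its probe gave an interaction of -1.57, while a probe sharing 59 of its bases gave 0.06.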

How the results depend on the processing

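The interaction gave 3 calls, and it gave the same 3 under quantile normalization, median centring, no filter, the filter on all 16 arrays, the value table, other moderation and kept spots. It gave 4 with array weights, these 3 included, and 1 without slide in the model, with slide as a random block and with normexp correction. Each slide alone gave 0 (581 probes at an unadjusted p under 0.05 on slide 1, 955 on slide 2; limma), where 2 arrays per group limit the test. Leaving out 1 array gave 0 to 5 calls. Occlusion without estradiol gave 0 calls, 14 on slide 2 alone and 0 to 9 with 1 array left out, 9 coming without BCO replicate 2. Occlusion with estradiol gave 1 call, 0 on either slide alone, 2 with the filter on all 16 arrays or with array weights, and 0 to 3 with 1 array left out (3 without BCO replicate 2 or 3; 2 without estradiol+BCO replicate 3; 0 without estradiol+BCO replicate 1 or 4 or estradiol replicate 2 or 3).

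With the replicate number as a replicate block the interaction gave 3 calls, the same ones, and occlusion with estradiol gave 0. The labels do not say whether the numbers pair fetuses, and the numbers were not taken as pairs because the deviations showed little pairing beyond slide. Of 24 same-numbered pairs 20 had deviations correlated above 0.1 (-0.02 to 0.27), but same-numbered arrays also share a slide. Within slides, where 2 arrays per group give mirrored deviations, 1 of 12 distinct values was above 0.1 (-0.22 to 0.12). Of the arrays 3 of 16 correlated best with their own number, and all 16 with their own slide.

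Among 75 named probes 63 kept their sign in every alternative. On slide 1 alone the sign turned for BAX (0.035), JUND (0.021), ROBO1 (-0.095), POMC (-0.11), JUNB (0.16), PGR (0.36) and NPY (-1.13), and on slide 2 alone for CDK2 (0.0025), EGR1 (-0.065), NR3C1 (-0.16) and TAC3 (0.028). NR3C1 turned with normexp (-0.12), TAC3 with quantile normalization (0.023) and array weights (0.19), and PGR with array weights (0.0028). With 1 array left out, the interaction ranged from -0.88 to 0.13 for PTGS2, -0.63 to 0.0010 for JUNB, -0.45 to 0.16 for PGR, -0.18 to 0.73 for NPY, -0.15 to 0.14 for NR3C1 and -0.34 to 0.46 for TAC3. None of these interactions was called in any setting, and the cause was not tested. List medians moved by more than the spread between arrays in 18 of 620 alternatives.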

Other observations

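MTNR1A, a melatonin receptor, was well above background on 2 control arrays, 1 BCO array, 2 estradiol arrays and 0 estradiol+BCO arrays, so no fold is given for it. KITLG, a growth factor with a large occlusion difference in both arms (1.89 without estradiol and 0.99 with it), gave an interaction of -0.90 ± 0.70 (adjusted p = 0.796 by limma), with -0.43 on slide 1 and -1.36 on slide 2.

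Probes that share nearly all of their bases did not always give like interactions. The pair listed as glut4, an insulin-regulated glucose transporter, shares 59 of 60 bases and gave -0.57 and 0.33. The PTCH1 pair, with the same overlap, gave -0.86 and -0.60, and the GAL pair 2.94 and 2.92.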
